A study of Mus musculus with 20 samples.

Results

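Acetylated chromatin regions lying inside protein-coding genes, away from both gene ends, were examined in mouse hepatocytes. Acetylation of lysine 27 of histone H3 (H3K27ac) was measured by chromatin immunoprecipitation and sequencing. The regions called in each of 10 libraries were merged wherever they shared 1 bp, which gave 46767 merged regions. Of these, 12550 were called in all 10 libraries. The 2791 gene-body regions described here are those of the 12550 that lay on an autosome, wholly inside the span of a protein-coding gene of the mouse RefSeq annotation (GRCm38.p6, the assembly named mm10), and over 5 kb from either end of every protein-coding gene. The choice used position and calling only, not the difference between ages. The value of a region in a library was the sum of its scaled tags, meaning sequenced fragments scaled to 10000000 per library. Each region is named by its host, the shortest protein-coding gene that holds it, and numbered along the chromosome where a host has several.

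Young hepatocytes came from C57BL/6N mice of 5 months (5 libraries) and old hepatocytes from C57BL/6J mice of 23 months (5 libraries). Both were isolated by perfusing the liver, carry no stated transgene and received no stated treatment. Age and substrain coincide, so a difference between the groups cannot be assigned to either. The 10 input samples entered only through the input value that the lists give for each region. Whether the libraries of an age stem from different mice is not stated, and p-values therefore measure only the spread between these samples, which may be technical.

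H3K27ac is placed by the acetyltransferases CBP and p300 and marks the nucleosomes beside active promoters and enhancers. Enhancers are stretches of DNA bound by transcription factors that raise transcription from a promoter, often over a long distance, and many lie in introns. The gene that holds an enhancer need not be the gene it acts on. In hepatocytes such elements are bound by factors like HNF4A, FOXA and C/EBP and by nuclear receptors. An annotated gene can also have further start sites inside its span, and acetylation there marks a promoter. Exons and introns were not analysed here, so the regions are called gene-body regions and not intronic ones.

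Part of the regions did hold a start site. The RefSeq promoter table lists starts and strands for the hosts of 2231 of the 2791 regions. Of these 2231, 375 (16.8%) held at least 1 listed start of a gene. In 314 it was a start of the host itself, and in 92 of those it was the only start listed for that host. Start-holding regions were stronger: those with a start of the host had a median of 257.9 scaled tags and 82.1 tags per kb of called length, against 98.2 tags and 41.0 per kb in the 1856 regions whose host was listed and which held no listed start. The label enhancer is therefore not used for the set as a whole, and a region free of listed starts may hold one that the table lacks.

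**Figure D1:**
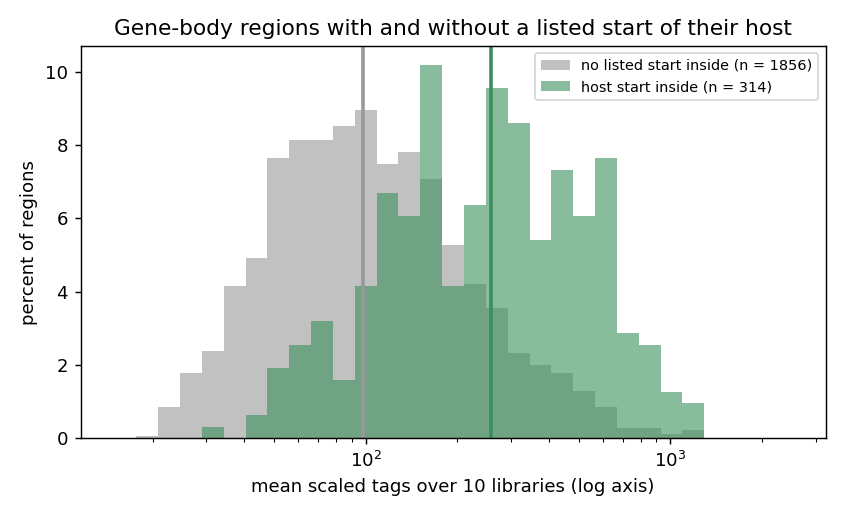
Share of gene-body regions (percent, vertical axis) by mean scaled tags over 10 libraries (log axis), for the 314 regions that held a listed start of their host and the 1856 that held no listed start. Vertical lines mark the medians of 257.9 and 98.2 scaled tags; both sets span a wide and overlapping range.

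Of the regions whose acetylation passed the test between ages, described further on, 5 contained a listed start of their host. The 250 bases upstream of those starts are shown, read from RefSeq in GRCm38.p6 on the strand of the gene, because they lie under acetylation that passed that test. Capitals mark matches on either strand to a TATA box (TATAAA), a GC box (GGGCGG) or a CCAAT box (CCAAT). For Rarb (minus strand, chr14:16575477-16575726), Ablim1 (minus strand, chr19:57274669-57274918), Adk (plus strand, chr14:21075902-21076151), Por (plus strand, chr5:135688895-135689144) and Adcy9 (minus strand, chr16:4420499-4420748) they read 5′ to 3′:
Rarb: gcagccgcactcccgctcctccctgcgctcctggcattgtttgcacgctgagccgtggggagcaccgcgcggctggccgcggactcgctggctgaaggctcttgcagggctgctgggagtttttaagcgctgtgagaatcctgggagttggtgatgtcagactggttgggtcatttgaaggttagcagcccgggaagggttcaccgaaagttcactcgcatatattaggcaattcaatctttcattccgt
Ablim1: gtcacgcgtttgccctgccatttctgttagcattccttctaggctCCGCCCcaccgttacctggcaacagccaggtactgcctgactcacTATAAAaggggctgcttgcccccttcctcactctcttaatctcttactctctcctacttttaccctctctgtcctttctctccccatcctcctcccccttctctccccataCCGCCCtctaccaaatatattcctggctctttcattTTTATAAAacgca
Adk: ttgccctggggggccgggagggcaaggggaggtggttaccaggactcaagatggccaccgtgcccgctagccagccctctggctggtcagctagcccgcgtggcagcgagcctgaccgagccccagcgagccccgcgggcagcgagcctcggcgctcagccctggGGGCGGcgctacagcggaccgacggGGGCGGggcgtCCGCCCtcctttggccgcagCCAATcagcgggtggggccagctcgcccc
Por: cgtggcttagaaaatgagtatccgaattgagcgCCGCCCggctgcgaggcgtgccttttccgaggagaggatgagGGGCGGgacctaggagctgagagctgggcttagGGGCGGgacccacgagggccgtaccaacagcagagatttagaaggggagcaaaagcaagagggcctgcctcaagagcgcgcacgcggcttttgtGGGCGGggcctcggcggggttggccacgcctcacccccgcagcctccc
Adcy9: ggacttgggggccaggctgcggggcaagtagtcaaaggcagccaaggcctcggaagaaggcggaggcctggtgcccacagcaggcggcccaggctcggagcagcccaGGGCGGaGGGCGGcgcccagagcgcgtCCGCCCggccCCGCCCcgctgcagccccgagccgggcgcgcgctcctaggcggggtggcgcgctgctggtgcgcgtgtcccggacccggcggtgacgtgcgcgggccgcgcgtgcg

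Rarb had no match in this window, Por and Adcy9 had 4 GC boxes each, Adk had 3 GC boxes and a CCAAT box, and Ablim1 had 2 GC boxes and 3 TATA matches, of which the last 2 overlap. Over all 371 host starts lying inside gene-body regions, 50.1% of the windows held a GC box, 7.01% a TATA box and 27.2% a CCAAT box, against 32.7%, 12.4% and 33.9% of the 32851 promoter windows of the table. The 371 are all starts of protein-coding genes, whereas the 32851 windows include starts of noncoding genes. How far that unlike make-up bears on the motif shares here and below was not tested. The interferon response element, searched as 2 copies of GAAA with any 2 bases between them, occurred in 1.08% of the windows at host starts and in 2.98% of all windows. In the same order, a nuclear receptor half-site (AGGTCA) was present in 14.6% and 14.0%, an E-box (CACGTG) in 5.93% and 6.02%, a FOXA core (TGTTTAC) in 2.16% and 3.17% and a D-box in 0.539% and 0.819%. Matches on both strands were counted. The median observed to expected ratio of CpG was 0.61 at these starts and 0.53 over 21262 listed protein-coding starts. A match is a match of letters and no evidence of binding.

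Hairpins of 11 microRNAs lay inside 11 of the gene-body regions, out of 1005 hairpins in the RefSeq table. MicroRNAs are short RNAs that pair through their seed, bases 2 to 8, with target messages. The mature forms below are shown because their hairpins lay in regions that ranged from the strongest to nearly the weakest of these 11, and because the miR-148 pair shares a seed although the genes lie on different chromosomes. Seeds are in capitals:
miR-101b-3p: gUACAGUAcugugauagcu
miR-148a-3p: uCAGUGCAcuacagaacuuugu
miR-148b-3p: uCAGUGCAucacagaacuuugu
miR-107-3p: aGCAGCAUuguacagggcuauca

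The region of miR-101b, inside Rcl1 (chr19:29124040-29135971), had a mean of 1014 scaled tags. That of miR-148a, a microRNA abundant in liver, lay in the span of Gm38821 (chr6:51267621-51273022) with 541.6 tags, while that of miR-148b, in Copz1 (chr15:103284329-103286723), had 50.4. The miR-107 region lay in Pank1 (chr19:34818013-34822263) with 204.1. The miR-148a region differed between ages by a log2 value of 0.06 and the miR-101b region by −0.01 (limma adjusted p = 0.818 and 0.977). None of the 11 passed the test. The smallest adjusted p was 0.0911, for the region of miR-6962 in Acvr1b (chr15:101188626-101196395), with 513, 641.6, 448.8, 315.7 and 279.8 scaled tags in young and 116.3, 182.3, 334.5, 127.8 and 149.3 in old replicates 1 to 5. Old replicate 3 lay among the young values there.

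The hepatocyte label was checked at gene ends. All 6 hepatocyte markers (Alb, Apoa1, Ttr, Serpina1a, Cps1, Hnf4a) had regions within 1 kb of a gene end in all 10 libraries, summing to 3863 to 5931 scaled tags in young and 2676 to 4512 in old. The Apoa1 region, shared with ends of Apoc3 and Sik3, carried a mean of 2956 of these in young and 2102 in old. None of the 5 endothelial markers had a region in any library. Of 7 leukocyte markers, 5 were at 0 (Clec4f, Adgre1, Ptprc, Csf1r, Cd3e), and the other 2, Cd68 and Cd79a, share their region with ends of other genes; the list summed to 389.6 to 569.1 in young and 235.9 to 442.2 in old. Of 5 stellate cell markers only Reln had a region, and of 5 cholangiocyte markers only Sox9 and Spp1. Sox9 was called in all 10 libraries, with a mean of 354.7 scaled tags in young and 319.7 in old, beside 343.8 and 209.7 for Alb, and its part in the results was not tested. Libraries held 6295930 to 15544145 tags, and the share of tags in called regions was 34.63% to 48.23% in young and 24.53% to 35.84% in old. Young replicate 5 stood apart by its estimated fragment length, 620 bp against 414 to 444 bp elsewhere, and old replicate 5 by its called length, 34.33 Mb against 42.18 to 58.95 Mb.

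Gene-body regions were weaker and more variable than regions at gene ends. Over libraries, the median gene-body region had 109.2 scaled tags (middle 2 quartiles 63.9 to 199.7, range 18.8 to 2235), the median of 6748 regions within 1 kb of a gene end had 249.2, and the median of 2045 intergenic regions over 5 kb from every gene had 99.4. Called lengths were close, 2333, 2411 and 2085 bp in the same order, so that the difference lay in density: 43.2, 95.9 and 45.4 tags per kb. The median coefficient of variation between libraries was 27.2% in young and 23.4% in old for gene-body regions, against 16.4% and 13.8% for gene ends. Intergenic regions, at 26.9% and 22.3%, were close to gene-body regions in this. Gene-body regions held 15.2 ± 0.963% (SD, n = 5) of the tags of the 12550 regions in young libraries and 15.3 ± 0.803% (SD, n = 5) in old ones, with overlapping ranges. Being called in all 10 libraries selects strong regions: over the 10929 gene-body regions called in 2 or more libraries, the median level where called was 13.8 scaled tags for those in 2 libraries, 46.3 for those in 9 and 109.2 for those in 10. On either side of the 5 kb limit, the 64 regions at 5 to 5.5 kb from a gene end had a median of 118.7 scaled tags and the 77 gene-body regions at 4.5 to 5 kb had 106.3.

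**Figure D2:**
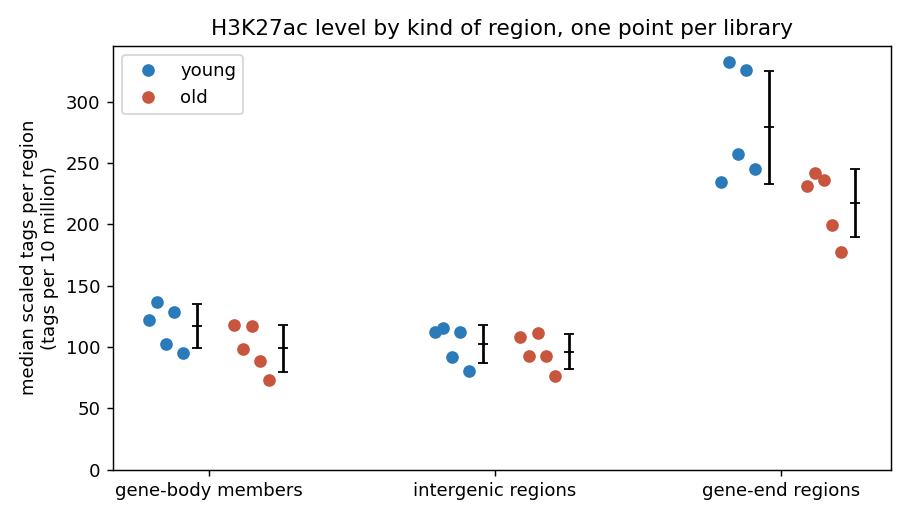
Median scaled tags per region (tags per 10000000) in each of the 5 young and 5 old libraries, for gene-body, intergenic and gene-end regions, with bars for the mean and SD over libraries. Gene-body and intergenic regions sit below gene-end regions in every library.

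The gene-body regions with the most summed tags were long, and the sum grows with called length. Per kb, the 8 strongest ranged from 47.2 tags (region 2 of Mtss1) to 113.6 (region 2 of 2900026A02Rik), beside a gene-body median of 43.2. They need not be continuous: in 1 library, up to 2 separately called pieces were joined in Per2 and up to 11 in Zbtb16. Region 2 of 2900026A02Rik (chr5:113127335-113155958) led with a mean of 2235 scaled tags. It had 2217, 3893, 2775, 2284 and 1710 in young and 1982, 2197, 2320, 1984 and 991.9 in old replicates 1 to 5, and the ages overlapped. Ttc39c followed with 1838. Mtss1, a gene for a protein that binds membranes and actin, held 2 of the first 5, region 1 with 1747 (chr15:58971774-59009240) and region 2 with 1341 (chr15:59010769-59052235). Zbtb16, a zinc finger repressor also called PLZF, had 1495 (chr9:48719512-48759057). Per2, a repressor of the circadian clock, had 1331 (chr1:91434828-91448641), Slc6a6, the taurine transporter, 1316 (chr6:91698444-91721244), and Slc38a4, an amino acid transporter of liver, 1283 (chr15:97008672-97038527). Region 2 of 2900026A02Rik held starts of the noncoding genes 4833439F03Rik and Gm42161, Per2 one of noncoding Gm35591, and Slc38a4 starts of its host. The hosts of the others have no listed start, so whether those regions hold one is not known. The longest were region 2 of Mtss1, the one of Zbtb16 and region 1 of Mtss1, with mean called lengths of 28104, 27927 and 27693 bp. The densest were shorter: region 2 of Ywhaz, which encodes a 14-3-3 protein, had 262.7 tags per kb, region 1 of Itprid2 237.9 and the region of Epc1, a subunit of the NuA4 acetyltransferase, 229.3.

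None of these 8 strongest regions passed the test between ages, and 2 came near it. Zbtb16 had 2151, 2414, 2095, 2001 and 1534 in young and 1755, 936.8, 848.4, 561.3 and 653.4 in old replicates 1 to 5. Only old replicate 1 reached the young range, and the log2 difference was −0.91 (limma adjusted p = 0.0611). Region 2 of Mtss1 had a difference of −0.48 (limma adjusted p = 0.0564). Per kb of called length these differences were −0.39 and −0.05.

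The 2791 regions lay in 1642 hosts. Most hosts held 1 region (1059) or 2 (317), and 266 hosts held 3 or more, 1098 regions in all. Hosts were long, with a median span of 87.6 kb against 33.1 kb for the 13957 protein-coding genes over 10 kb, as the distance limit requires room. Where the strand was known (2231 regions), 56.0% were nearer the host's start than its end by position along the span, 16.1% lay in its first 20% and 10.6% in its last 20%, where the distance limit acts on both sides. The median distance to the nearest protein-coding gene end was 24.1 kb and the largest 639.1 kb. Among the hosts with the most regions were Prkce, protein kinase C epsilon, with 14, Nfia, a nuclear factor I family member, with 13, Sox5, a SOX transcription factor, with 12, Mob3b, Rora, a nuclear receptor of the clock, and Zbtb20, a zinc finger repressor expressed in liver, with 11 each, and Itpr1, an inositol trisphosphate receptor, with 10. Region 7 of Rora (chr9:69286428-69295526) was the strongest of its host, with 846.5, 978.5, 739.6, 947.8 and 805.2 scaled tags in young and 748.9, 754.5, 769, 576.8 and 541.6 in old replicates 1 to 5. It lay 638 kb into a gene of 735 kb, and its ages overlapped (log2 difference −0.06, limma adjusted p = 0.746).

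For 1749 regions the host also had a gene-end region called in all 10 libraries. Where a host had several, the strongest was taken, here and below, at either end and also where another gene shared it. That choice lowers the ratio of gene-body to gene-end region. The gene-body region was the weaker of the pair in most, with a median ratio of 0.315, and the stronger in 273 (15.6%). The log2 differences between ages of the pair had the same sign in 988 of 1749, with a Spearman correlation of 0.216 across regions. Regions of 1 host share that gene end and all share the libraries, so this is a description.

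Acetylation of gene-body regions was then compared between old and young hepatocytes. Each library was centred on the median of its 12550 regions on the log2(scaled tags + 1) scale, since those medians were 168.2 to 229.2 in young and 124.7 to 177.9 in old libraries, and limma was fitted over all 12550. Differences below are log2, old minus young, on that centred scale, and they understate changes of weak regions. Old libraries were lower before centring, by a median of −0.31 over all regions and −0.27 over gene-body regions, so a printed difference tends to sit above the ratio of the scaled tags printed beside it. The fit averages logs, so this need not hold, and for region 2 of Cep85 the difference sits slightly below the log2 ratio of the means. Only changes relative to the median region are read, because a spike-in of human chromatin, named in the labels, was not used here.

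Most gene-body regions did not pass the test. The median difference over the 2791 was 0.03, with 1464 above and 1327 below 0, against −0.01 over all 12550 regions, −0.05 at gene ends and 0.16 in intergenic regions. At a limma adjusted p of at most 0.05, 40 gene-body regions passed (1.43%), beside a background of 1.07% of all 12550 regions. Of the 40, 23 were higher in old (background 0.534%) and 17 lower (background 0.534%). Without centring 129 gene-body regions passed, 8 higher and 121 lower, as did 28 higher and 697 lower of all regions, so the balance of directions depends on the centring. At an unadjusted p under 0.05 there were 523, beside 17.2% of all regions. The centred values of the ages did not overlap in 141 gene-body regions, 79 higher and 62 lower, beside 5.28% of all regions. The 40 lay in 20 hosts with higher and 15 with lower regions, and 37 of them had centred values that did not overlap. Before centring, the scaled tags of the ages were apart in 8 of the 23 higher and 15 of the 17 lower regions. The 40 were picked by a test on the centred values, so separation on that scale is no further support.

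The count rested on the set of libraries. It was 71 without young replicate 1, 15, 17, 15 and 22 without young replicates 2 to 5, and 27, 12, 17, 11 and 16 without old replicates 1 to 5. It was 2 without young replicate 5 and old replicate 5 together, which stood apart. With the share of tags in called regions as a covariate no gene-body region passed in limma, 390 having an unadjusted p under 0.05. That share was lower in old libraries, and its part in the differences cannot be told apart from age. All 40 kept their direction in each of these fits and no difference moved by over 1.27 times when 1 library was left out, but only 8 of the 40 passed in every fit without 1 library: Cyp2j11, Dysf, D130043K22Rik, Gabbr2, Tenm3, Nrp2 and region 11 of Prkce among the higher, and Mbnl1 among the lower. The 40 were selected on these same libraries, so a kept direction could hardly fail and is no independent check.

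**Figure D3:**
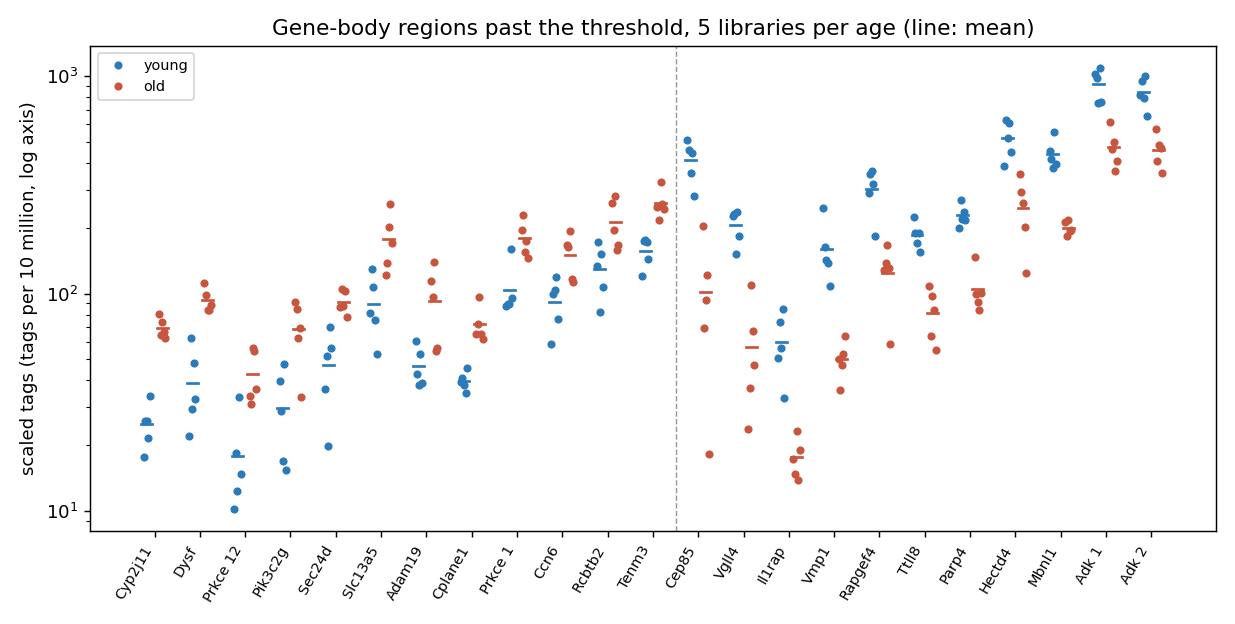
Scaled tags in each library (points, log axis) for the gene-body regions past the threshold whose ages differ most, young and old side by side. Cyp2j11 ranges from 17.6 to 33.8 in young and from 62.7 to 80.4 in old, and Cep85 from 279.8 to 509 and from 18.3 to 204.

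Among the regions higher in old hepatocytes, that of Cyp2j11, a cytochrome P450 of the Cyp2j family (chr4:96324778-96326453), rose most. It had 17.6, 25.9, 25.9, 21.7 and 33.8 scaled tags in young and 80.4, 64.5, 73.6, 66.8 and 62.7 in old replicates 1 to 5. Every old value was above every young one, and the difference was 1.76 ± 0.26 (SE, limma adjusted p = 0.0136). The region of Dysf, dysferlin, a membrane repair protein (chr6:84042086-84044721), had 22.1, 62.2, 29.3, 47.9 and 32.8 in young and 112.3, 98, 84.3, 84.3 and 88.2 in old libraries. Here too the ages were apart, with a difference of 1.62 ± 0.24 (SE, limma adjusted p = 0.0136). The lowest adjusted p among the gene-body regions, 0.00261 in limma, belonged to D130043K22Rik (chr13:24878602-24883646), with 207.2, 281, 252, 277.6 and 220.3 in young and 430, 423.5, 411.2, 319.7 and 295.4 in old libraries. Its old values all exceeded its young values, by a difference of 0.89 ± 0.097 (SE).

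Further regions rose with differences over 1. Slc13a5, the sodium-coupled citrate transporter of liver (chr11:72255278-72258315), rose, with 89.1 ± 29.7 in young and 178 ± 54.8 in old (mean ± SD, n = 5; difference 1.30, limma adjusted p = 0.0464), with values that overlap before centring. Pik3c2g, a class II phosphoinositide 3-kinase expressed in liver (chr6:139859049-139862276), went from 29.6 ± 13.9 to 68.3 ± 22.8 (1.52, limma adjusted p = 0.0464). Sec24d, a cargo adaptor of secretory vesicles (chr3:123352777-123355063), went from 46.7 ± 19.3 to 91.8 ± 11.5 (1.36, limma adjusted p = 0.0446). Adam19, a membrane metalloprotease (chr11:46083648-46086365), Cplane1, a cilium assembly protein (chr15:8237197-8239875), and Ccn6, a secreted matrix-associated protein (chr10:39164534-39167495), differed by 1.19, 1.13 and 1.03 (limma adjusted p = 0.048, 0.0433 and 0.0274). Region 3 of Tenm3, a teneurin adhesion receptor (chr8:48728799-48735214), had 120, 175.1, 175.7, 173.3 and 143.8 in young and 251.2, 218.8, 324.5, 258.2 and 246.2 in old libraries, again without overlap (1.02, limma adjusted p = 0.0136). Region 2 of Rcbtb2 (chr14:73169166-73175625) differed by 1.02 and region 2 of Nrp2, a co-receptor for semaphorins (chr1:62807665-62811852), by 1.02 (limma adjusted p = 0.0205 and 0.0139). As for Slc13a5, the scaled tags of the ages overlapped before centring for Pik3c2g, Adam19, Ccn6 and region 2 of Rcbtb2.

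Outside Prkce, the other higher regions had differences of less than 1. Rarb, retinoic acid receptor beta, has the only start listed for it inside its region (chr14:16572511-16576659), on the sequence printed above. Its values were 196.5, 187.2, 178.4, 267.8 and 212 in young and 288.4, 295.5, 321.3, 278.9 and 261.3 in old libraries. Young replicate 4 overlapped the old range, and the difference was 0.78 (limma adjusted p = 0.0249). Region 5 of Gabbr2, a subunit of the GABA B receptor (chr4:46950566-46961556), differed by 0.88 (limma adjusted p = 0.00707), and all 5 regions of that host had a positive difference, from 0.41 to 0.88. Region 1 of Col15a1, collagen XV (chr4:47239265-47247530), differed by 0.86, Dntt, the nucleotide-adding polymerase of lymphocytes (chr19:41044433-41054027), by 0.96, region 4 of Sox5 (chr6:144200140-144204710) by 0.73, region 3 of Adgrv1, an adhesion receptor (chr13:81320799-81338048), by 0.58 and region 4 of Ablim1, an actin-binding protein (chr19:57269820-57276404), by 0.52. Their limma adjusted p lay between 0.0269 and 0.0475. The other 4 regions higher in old lay in Prkce.

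Among the regions lower in old hepatocytes, region 2 of Cep85, a centrosome protein (chr4:134158572-134165671), fell most. It had 509, 456.2, 359.6, 445 and 279.8 scaled tags in young and 204, 69.6, 93, 121.9 and 18.3 in old replicates 1 to 5. The ages did not overlap, old replicate 5 was the lowest, and the difference was −2.04 ± 0.42 (SE, limma adjusted p = 0.0438). Region 3 of Vgll4, a cofactor that competes with YAP for TEAD factors (chr6:114918414-114922962), had 226.5, 233.2, 151.9, 236.9 and 183.3 in young and 23.9, 36.6, 109.4, 67.3 and 46.9 in old libraries. All old values lay below the young ones (−1.71, limma adjusted p = 0.042), while the gene-end region of Vgll4 fell by less (−0.51, limma adjusted p = 0.0438). Vmp1, an endoplasmic reticulum protein needed for autophagosomes, had 2 lower regions, region 3 (chr11:86612326-86616524; −1.52) and region 2 (chr11:86602439-86606496; −1.33), both at a limma adjusted p of 0.0464.

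Regions in 2 cytokine receptor genes fell. Il6ra, the interleukin 6 receptor (chr3:89894797-89903796), had 313.1, 345, 162.1, 368.9 and 277 scaled tags in young and 190.7, 107.2, 77.9, 77.4 and 41.3 in old libraries. Old replicate 1 lay above young replicate 3, and the difference was −1.38 (limma adjusted p = 0.0438). The gene-end region of Il6ra fell as well (−0.62, limma adjusted p = 0.0331). Region 3 of Il1rap, the accessory protein of the interleukin 1 receptor (chr16:26721516-26725018), had 50.4, 74.3, 55.9, 85.3 and 33.1 in young and 17.3, 14.7, 23.3, 13.8 and 19.1 in old libraries. The ages were apart at these low levels (−1.36, limma adjusted p = 0.0438), but per kb of called length its difference was 0.07.

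Adk, adenosine kinase, carried the adjoining lower regions 1 and 2 (chr14:21074194-21092309 and chr14:21093876-21120173). Region 1, which holds a listed start of the host, had 1023, 978.5, 754, 1092 and 765.3 in young and 617.4, 463.1, 496.1, 365.8 and 408.2 in old libraries. Region 2 went from 847 ± 136 to 458 ± 80.6 (SD, n = 5 each), and the differences were −0.68 and −0.59 (limma adjusted p = 0.0269 and 0.0249), against −0.06 at the gene-end region of Adk. Region 1 of Por, the electron donor of microsomal cytochromes P450 (chr5:135687043-135698600), had 827.2, 1056, 705, 853.9 and 784.5 in young and 561.5, 551.4, 518.2, 384.9 and 327.2 in old libraries, and holds the only listed start of Por. The ages did not overlap there (−0.57, limma adjusted p = 0.0272). Region 3 of Adcy9, an adenylyl cyclase whose listed start it holds (chr16:4413206-4421374), differed by −0.56, and region 1 of Rapgef4, a cAMP-activated exchange factor (chr2:72150290-72161197), by −1.02 (limma adjusted p = 0.0438 and 0.0442). Region 3 of Mbnl1, a splicing regulator (chr3:60526398-60532434), had 451.8, 417, 378.7, 555.9 and 395 in young and 214, 184.8, 217.6, 193.5 and 196.2 in old libraries, with little spread among the old ones (−0.82, limma adjusted p = 0.0154). Ttll8, a tubulin-modifying ligase (chr15:88918826-88923315), Parp4, an ADP-ribosyltransferase of vault particles (chr14:56617345-56622173), St3gal3, a sialyltransferase (region 2, chr4:117989949-118002121), and Hectd4, a HECT domain ubiquitin ligase (chr5:121328431-121339235), differed by −0.92, −0.85, −0.85 and −0.83, with limma adjusted p between 0.0373 and 0.048. The Parp4 region holds a start of the noncoding gene Gm16573.

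Called length moved with every one of these 40 regions. Because each library brought its own borders, all 23 higher regions had a longer mean called length in old libraries (median ratio 1.33) and all 17 lower ones a shorter one (median ratio 0.585). On scaled tags per kb of called length, 9 gene-body regions passed limma (8 higher, 1 lower), beside 0.319% of all regions, and 3 of the 40 were among them. All 23 higher and 13 of 17 lower regions kept their sign per kb, and the exceptions were Il1rap (0.07), Ttll8 (0.01), region 1 of Adk (0.06) and Adcy9 (0.10). Called length itself gave no region past the threshold in limma, with 394 gene-body regions at an unadjusted p under 0.05. The input value, also summed over the called length, gave none either, with 189 at that p. Among the 40, however, summed input differed in the direction of the signal in all 23 higher and 16 of the 17 lower regions. Of these higher and lower regions, 10 and 12 had an unadjusted p under 0.05 for input in limma. Input per kb differed by a log2 median of −0.12 over all gene-body regions and of −0.12 over the 40. Split by direction, the median ratio of input per kb, old over young, was 0.97 in the 23 higher and 0.892 in the 17 lower regions. The part of input in the differences was not tested.

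**Figure D4:**
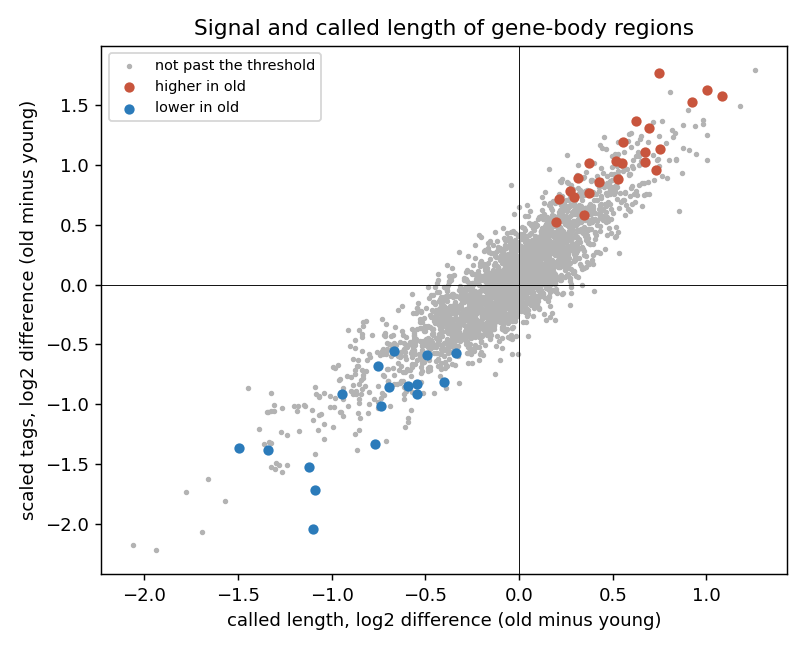
Log2 difference of scaled tags (vertical axis) against that of called length (horizontal axis), old minus young, for 2791 gene-body regions, each a point, with the 23 higher and 17 lower regions coloured. Both differences moved together, and all coloured points lie in the quadrants where signal and length changed in the same direction.

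Prkce, the host with the most regions, was the only host with 4 regions past the threshold. It spans 490.1 kb (chr17:86167785-86657919). Regions 1, 10, 11 and 12 were higher in old, by 1.10, 0.71, 0.76 and 1.58 (limma adjusted p = 0.0237, 0.029, 0.0173 and 0.0438). Region 11 (chr17:86521696-86537263), the strongest, had 586, 923.8, 506.8, 707.6 and 454.8 scaled tags in young and 866.6, 800.2, 1017, 950.1 and 661.6 in old replicates 1 to 5. Region 10 (chr17:86492765-86507812) had 518, 736.6, 466.6, 528.3 and 448.1 in young and 707.1, 690.1, 889.7, 862.5 and 472.6 in old libraries. In both, the scaled tags of the ages overlap and the centred values do not. Of the 14 regions, 13 had a positive difference, with a median of 0.64 (0.37 per kb, 0.34 without centring), and all 14 were positive per kb. The exception was region 2, at −0.19. The gene-end region of Prkce, with 607.6 scaled tags, differed by 0.02 (limma adjusted p = 0.929). Region 1 holds the start of a noncoding gene, 2010106C02Rik.

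Rad51b, a gene of the recombination repair of DNA, held 8 regions with a positive difference in each (median 0.95) and none past the threshold. Its summed scaled tags were 2156, 1366, 1324, 860.6 and 579 in young and 1532, 1299, 1613, 1874 and 1212 in old replicates 1 to 5. The young libraries spanned the old range and more, and the smallest limma adjusted p was 0.149. Per kb of called length the median was 0.19, and 7 of 8 were positive. Prkce and Rad51b are named after their values were seen, apart from the count that names Prkce. Among all 266 hosts with 3 or more regions, the differences were all positive in 49, all negative in 39 and of both signs in 178.

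**Figure D5:**
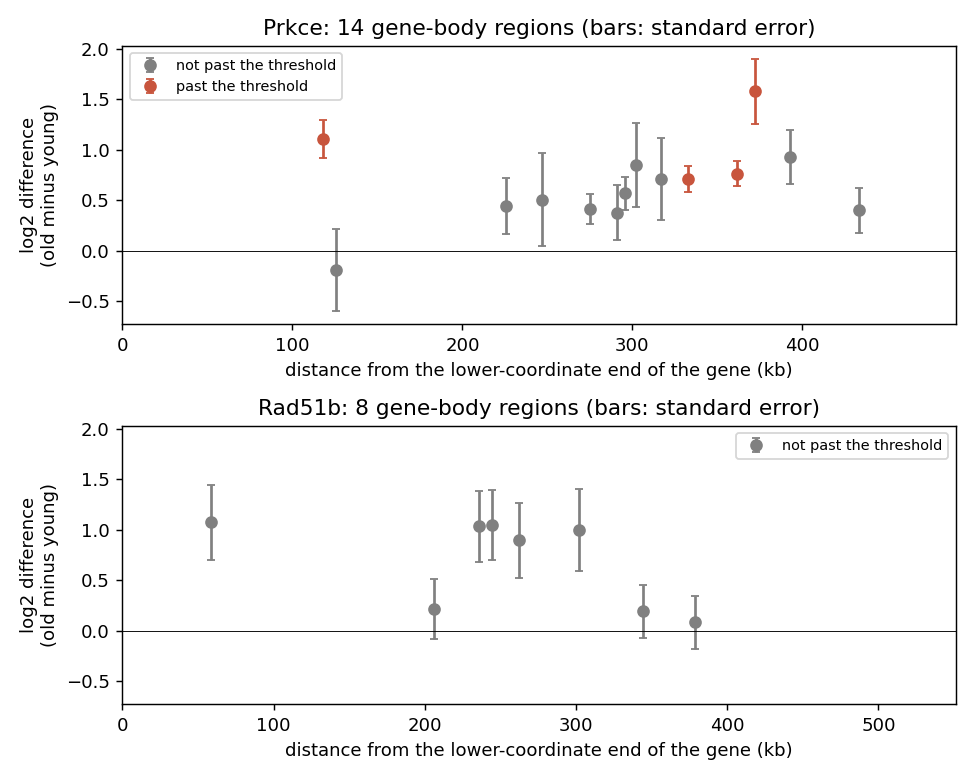
Log2 difference of scaled tags, old minus young, of each of the 14 gene-body regions of Prkce and the 8 of Rad51b. The horizontal axis is the distance from the lower-coordinate end of the gene (kb). Bars are standard errors, and regions past the threshold are coloured. Differences in Prkce run from −0.19 to 1.58 on scaled tags, and those in Rad51b from 0.08 to 1.07.

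Hosts were then grouped by function with 13 lists. In each list most regions did not pass the test, and without centring every list's median was negative, as was that of all regions. The counts below stand beside a background of 0.534% higher and 0.534% lower among all 12550 regions. Hepatocyte transcription factors and nuclear receptors held 101 gene-body regions in 39 hosts, of which 1 was higher (Rarb) and 0 lower, with a median difference of −0.10 (0.01 per kb). In Hnf4a, the nuclear receptor central to hepatocyte identity, region 2 (chr2:163545936-163560745) had 1316, 1312, 1113, 1032 and 710.6 scaled tags in young and 588.1, 622.5, 649.7, 415.7 and 236.7 in old libraries. The ages were apart, with a difference of −0.88 that missed the threshold (limma adjusted p = 0.0565; −0.29 per kb), and the region holds a listed start of the gene. Region 1 of Hnf4a (chr2:163531966-163542993) overlapped between ages (−0.16, limma adjusted p = 0.472). Nr3c1, the glucocorticoid receptor, had 907.5 scaled tags and a difference of −0.08. The circadian clock list held 17 regions in 6 hosts with none past the threshold and a median of 0.09. Its stronger members besides Per2 and Rora were Tef, a clock output factor (chr15:81808223-81814938; 574.7 tags, −0.17), and Usp2, a deubiquitinase (chr9:44082127-44089378; 551 tags, −0.24). Cofactors and histone acetylation genes held 52 regions, none past the threshold (median 0.00), with Chd9 and Hdac4 among the stronger hosts.

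Of 64 regions in insulin, growth hormone and growth factor genes, 5 were higher (background 0.534% of all regions), and 0 lower, with a median of 0.00. The 5 were the 4 of Prkce, which share 1 host, and that of Pik3c2g. Differences over the 64 regions ran from −2.17 to 1.58, and the largest fall did not pass. Igf1, the growth factor that liver releases in response to growth hormone, had in region 2 (chr10:87891360-87909889) 670.4, 610.4, 643, 803.4 and 626.9 in young and 596.8, 423.5, 306.8, 287.9 and 177.1 in old libraries. No old value reached the young ones, the difference was −0.71 and it did not pass (limma adjusted p = 0.107; −0.13 per kb). Wnt, Hippo, TGF beta and Notch genes held 35 regions with none past the threshold (median −0.04, range −0.62 to 1.79), among them Rbpj, the DNA-binding partner of Notch (522.1 tags, −0.08), and Notch2 (197.1 tags, −0.62, limma adjusted p = 0.154). The interferon, antigen presentation, NF-kB and interleukin 6 list held 24 regions in 15 hosts, 0 higher and 2 lower (Il6ra and Il1rap), with a median of −0.18 (0.04 per kb). Nfkbiz, an inducible regulator of NF-kB, had 545.4 tags (0.01), and 2 regions of Lifr, a receptor of the interleukin 6 family, differed by −0.15 and −0.27, all 3 short of the threshold.

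The metabolic lists held 1 region past the threshold, that of Por. These lists are not complete: Cyp2j11, Slc13a5 and Adk, which have regions past the threshold, are in none of them. Fatty acid, triglyceride and lipoprotein genes held 68 regions (median −0.03), none past it. Region 1 of Lpin1, a phosphatidate phosphatase (chr12:16579623-16593422), came closest of those named, falling short at −0.91 with 944 ± 294 in young and 399 ± 99.1 in old ones (mean ± SD, n = 5; limma adjusted p = 0.0533), and Lpin2 had 804.1 tags (−0.10). Bile acid and xenobiotic genes held 16 regions, of which Por was lower and 0 higher (median 0.00). Amino acid, urea and one-carbon genes held 26 (median −0.03), glucose and glycogen genes 21 (median −0.08) and secreted hepatocyte proteins 17 (median −0.03), with region 2 of Col18a1, the precursor of endostatin, at 1097 tags (−0.26). None of the regions in these 3 lists passed. Cell junction, polarity and adhesion genes held 96 regions, 36 positive and 60 negative (median −0.11, 0.04 per kb), and iron, oxidative stress, p53 and senescence genes 25, of which 18 were positive (median 0.15), again with none past the threshold. The 8 Rad51b regions belong to the latter list.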

How the data were processed

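Lists of H3K27ac regions from 5 young and 5 old hepatocyte libraries were analysed. Per the file headers, HOMER was run by the authors on each library against its own input. Peaks 500 bp wide and 1000 bp or more apart were stitched into regions, with at least 4-fold more tags than the input and than the surrounding 10000 bp. The submitters' processing notes name mm10 as the build. Aligner and HOMER version: not given in the sources used here. For each region, the signal used was the tag number that the authors scaled to 10000000 per library, per the file headers. The deposited unscaled tags came in steps of 0.5 and were treated like estimated counts (expected counts), rounded for edgeR and DESeq2. The input value was a signal deposited with each region, and the fold over input a ratio given by the authors. The p-values, scores and region lengths (another unit, bp) were those of the authors' deposited lists.

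Regions were merged by 1 bp, and members, hosts and gene ends were taken from RefSeq gene spans. The members and the host lists were chosen with earlier results of these data known. limma 3.58.1 with a mean-dependent prior (R 4.3.3) was fitted on log2(scaled tags + 1), centred per library, over the 12550 regions called in all 10 libraries, with Benjamini-Hochberg adjustment at 0.05. Named were the 8 strongest members, up to 12 past the threshold in each direction whose centred values do not overlap, the 8 hosts with the most members, up to 4 of the strongest in each list with those past the threshold, and the 3 longest and 3 densest. The other regions past the threshold, the microRNA regions, further regions of a host already named and Rad51b were named after their values were seen. Some regions that the rule selects are not reported here, though they stay in every count of regions and calls. Same-numbered replicates are not stated to be paired. Alternatives were other pseudocounts, a level minimum of 50, no centring, cyclic loess, tags per kb, edgeR 4.0.16, DESeq2 1.42.0, a covariate for the share of tags in called regions, an 8-fold input threshold, a replicate block and leaving out libraries. The fit was tested on simulated data. Total tags of 6295930 to 15544145 per library set the precision, and a missing call does not show missing signal. Python 3.11.15 was used with numpy 2.4.6 and pandas 2.3.3, and figures were drawn with matplotlib 3.10.9.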

Additional observations from a re-analysis of the deposited data

Results flagged for a closer look

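Among 178 groups of 5 values of the named regions and 10 groups of library measures, 11 had 1 library far from the other 4 by Dixon's criterion, which chance alone meets in about 1 group in 20. In 7 it was a gene-body region. Region 2 of 2900026A02Rik had 991.9 scaled tags in old replicate 5, against 1982 to 2320 in the other old libraries. Region 1 of Prkce had 159.5 in young replicate 4 (others 87.8 to 95.2) and region 10 of Prkce 736.6 in young replicate 2 (others 448.1 to 528.3), both values on the side of the old libraries. Region 1 of Parp4 had 146.9 in old replicate 1 (others 83.8 to 100.9). The region of Fmo5, a flavin monooxygenase, had 566.5 in old replicate 3 (others 320.8 to 381.8). Tef had 557.5 in old replicate 2 (others 451.9 to 461.8), and region 1 of Rad51b 360 in old replicate 4 (others 177.9 to 227).

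Of the library measures, young replicate 5 stood apart with 15544145 total tags (other young 7341342 to 8830854) and with a fragment length of 620 bp (other young 414 to 444). Old replicate 4 had a fragment length of 444 bp, against 440 bp in the other 4 old libraries, a gap of little size. Old replicate 5 covered 34.33 Mb, against 47.68 to 51.4 Mb in the other old libraries.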

How the results depend on the processing

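The number of gene-body regions past the threshold was 40, and that of all regions 134. For gene-body regions and all regions in that order, the numbers were 23 and 79 with a mean of at least 50 scaled tags, 129 (8 higher, 121 lower) and 725 without centring, 9 and 40 per kb of called length, 161 and 619 with DESeq2, 0 and 0 with the covariate for the share of tags in called regions (390 and 1666 at an unadjusted p under 0.05), 12 and 42 of the 371 and 2159 regions at least 8-fold over input, and 2 and 11 without young replicate 5 and old replicate 5 together, an alternative chosen after seeing the data. Leaving out 1 library gave 11 (without old replicate 4) to 71 (without young replicate 1) and 30 to 255. With edgeR the numbers were 40 and 122, with cyclic loess 33 and 104, with pseudocounts of 0.5 and 5 40 and 45 of the gene-body regions. The split into higher and lower moved by over 10 percentage points without centring, with the level minimum (16 higher, 7 lower), per kb (8 and 1), with the replicate block (12 and 16) and without young replicate 1, 2, 3 or 4 or old replicate 2, 4 or 5, where the higher share rose from 57.5% to between 68.8% and 86.7%. Called length, with 0 gene-body regions past the threshold, gave 0 to 5 without 1 library (5 without old replicate 1, 4 without old replicate 3).

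The replicate number as a block gave 28 gene-body regions (19 of them among the 40) and 74 of all regions, and 1 gene-body region on called length. Deviations of same-numbered libraries correlated by −0.01, 0.11, 0.18, −0.05 and 0.07 for numbers 1 to 5, and only replicate 3 correlated best with its own number, so the number was not taken as a pairing.

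On tags per kb the sign turned for region 3 of Il1rap (0.0735), Ttll8 (0.0143) and region 1 of Adk (0.0641), and Adcy9 turned to 0.10; the called length, which differed between the ages there, is what that alternative divides by. The number of gene-body regions was 371 where regions had to be at least 8-fold over input, 10929 with calls in at least 2 libraries, 2791 with an overlap of 100 bp and 2236 at over 10 kb from gene ends.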
